A study of Oryza sativa with 12 samples.

Results

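The short-arm ends of rice chromosomes 11 and 12 carry copies of the same ancestral segment. IDD7 DNA-binding sites in these copies were taken from the deposited peak lists by position alone. Every summit within the first 2.5 Mb of either chromosome was a member, whether or not it recurred. The borders of the duplication were not placed in the coordinates of the lists, so some members may lie outside it. The word copies below means these 2.5 Mb ends. List A held 358 members, 180 on chromosome 11 and 178 on chromosome 12, out of 27495 summits in all (1.30%). List B held 305 members, 163 and 142, out of 24744 (1.23%). A list A summit with a list B summit within 250 bp was called shared, and 189 of the 15606 shared summits were members, 98 on chromosome 11 and 91 on chromosome 12. The last shared summit inside the limit and the first outside it lay at 2497034 and 2522568 on chromosome 11 and at 2438058 and 2511661 on chromosome 12.

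The study used DNA affinity purification sequencing (DAP-seq), in which a tagged transcription factor pulls its binding fragments out of naked genomic DNA in a test tube. Genomic DNA of Oryza sativa ssp. japonica cultivar Nipponbare came from roots inoculated with Rhizophagus irregularis, an arbuscular mycorrhizal fungus, under 25 uM phosphate. The roots were collected 7 weeks after inoculation with colonization above 90%. All 12 libraries share this plant material, 6 being incubated with HaloTag-IDD7 and 6 with HaloTag-GFP, the control against which peaks were called. Lists A and B are technical replicates that each pool biological replicates 2, 3 and 4, so their comparison measures repeatability of the assay and not variation between plants. Chromatin, nucleosomes and partner proteins of the living root are absent from this assay, and the fusion proteins were made in a wheat germ extract. The lists give positions without peak height or depth, and sequence under the peaks was not analysed here.

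IDD proteins are plant zinc finger transcription factors of the indeterminate domain family. In Arabidopsis, members of the family work with the GRAS proteins SHORT-ROOT and SCARECROW in root patterning, and other members act with DELLA proteins in gibberellin responses. A segmental duplication places the same genes, with their flanking DNA, on a second chromosome. The copies then diverge by base changes, insertions of transposable elements and loss, unless gene conversion makes them alike again. The duplicated ends of chromosomes 11 and 12 are a well-known case of this in the rice genome. The comparison therefore asked whether IDD7 sites lie at similar density, recur equally often, and keep the same order and spacing in the 2 copies.

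The duplication was checked by gene names in the RefSeq table of another rice assembly (ASM3414082v1), whose coordinates were not used. Among the first 400 listed genes of each chromosome, 26 on chromosome 11 and 27 on chromosome 12 had a descriptive name, and 20 pairs with the same name stem, the capital letters before the number, stood in the same order on both. The 65 other pairs of chromosomes had at most 4 such pairs. Of these, 11 could only give 0, since chromosome 9 had no descriptive name among its first 400 genes, and the other 54 had a median of 1. The names were PHOT1B and PHOT1A, which are blue light receptors of the phototropin family, near the start of the order, followed by DRB7 and DRB1, of a double-stranded RNA binding family. Next stood the calcium sensor-interacting kinases CIPK15 and CIPK14, the kinases OsWNK7 and OsWNK8, and several LTP genes for lipid transfer proteins. OsSCR1 and OsSCR, the rice SCARECROW genes, came in the middle part of the order, followed by the NAC factors NAC45 and NAC077 and by MIF1 and MIF2. CIPK33 and CIPK32 lay beside the calmodulin-like genes CML2 and CML3 in both copies. Further along were the calcium pump genes ACA8 and ACA9, the pair CCDA1 and CCDA2, and a gene named NH5 in each copy, an NPR-type gene. CPD1 and CPD2, cytochromes P450 of brassinosteroid synthesis, stood directly beside the response regulator genes OsRRA1 and OsRRA2 of cytokinin signalling on both chromosomes. The last pairs were GLDH1 and GLDH2, OsPK1 and OsPK2, PSK2 and PSK5 for phytosulfokine precursors, and the TGA-type bZIP genes TGAL4 and TGAL11. These names describe the duplicated gene content only, and no IDD7 site was assigned to any of them, because the lists and the gene table belong to different coordinate systems.

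IDD7 sites in the duplicated copies stood near the average density of short-arm ends, and no difference from the other ends was detectable. In list A, chromosome 11 had 72.0 summits per Mb and chromosome 12 had 71.2 per Mb. The 10 other ends averaged 70.0 per Mb (SD 8.78, n = 10 ends), from 56.8 on chromosome 2 to 84.0 on chromosome 9. In list B the copies had 65.2 and 56.8 summits per Mb, against 61.7 per Mb at the other ends (SD 9.96, n = 10 ends, range 49.2 to 75.2). For shared summits the copies had 39.2 and 36.4 per Mb, against 38.2 per Mb (SD 6.71, n = 10 ends, range 26.4 to 47.2). Chromosome 11 took place 5 of 12 from the top in all of these measures. Chromosome 12 took place 6 in list A and place 8 in list B and among shared summits. The mean of the copies differed from that of the other ends by -0.360 shared summits per Mb, less than the spread between ends (exact two-sided permutation test over the 66 choices of 2 ends among 12, p = 0.955, adjusted p = 0.985). The corresponding differences were 1.56 per Mb in list A (exact permutation p = 0.894) and -0.720 per Mb in list B (exact permutation p = 0.924). The smallest p that this design can give is 0.0152.

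**Figure D1:**
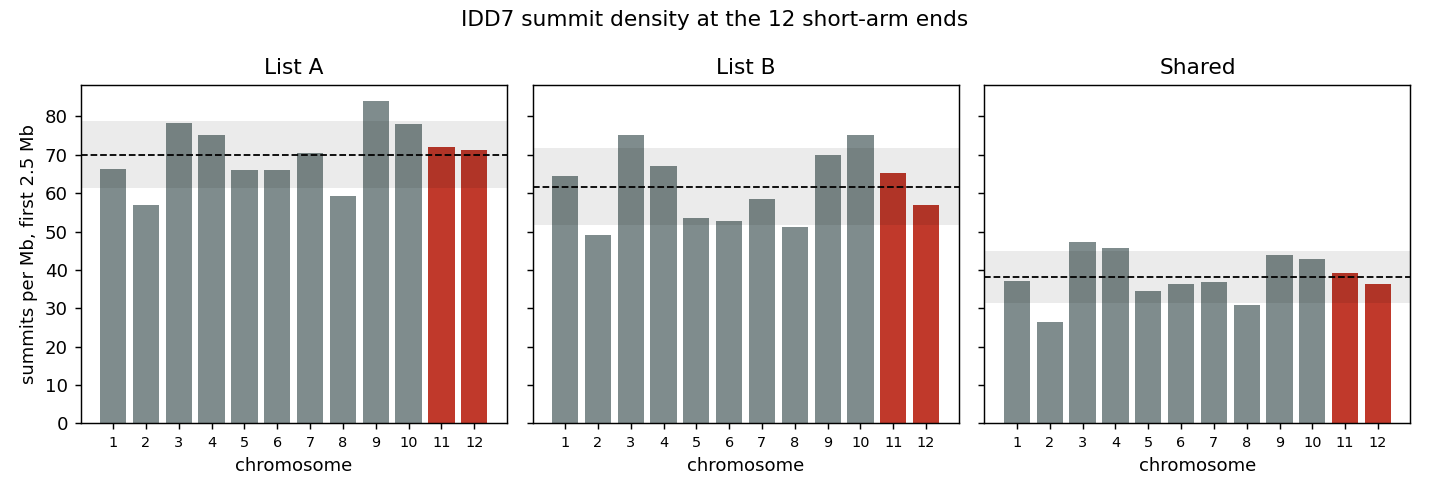
Summits per Mb in the first 2.5 Mb of each numbered chromosome, for list A, list B and shared summits, with the duplicated ends in red, the mean of the 10 other ends as a dashed line and its SD as a grey band. Both red bars lie inside the band in all 3 panels, from 36.4 to 39.2 per Mb for shared summits.

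For sites called in only 1 list, no difference from other ends was detectable either. List A only summits stood at 32.8 per Mb on chromosome 11 and 34.8 per Mb on chromosome 12, places 5 and 3 of 12. The other ends averaged 31.9 per Mb (SD 3.53, n = 10 ends), and the difference of 1.92 did not pass the test (exact permutation p = 0.530). List B only summits stood at 26 and 20.4 per Mb, against 23.5 per Mb elsewhere (SD 4.74, n = 10 ends; exact permutation p = 0.985). The remainder of each chromosome held 41.2 shared summits per Mb on chromosome 11 and 39.9 per Mb on chromosome 12. The ratios of end to remainder were 0.953 and 0.912, within the range of 0.600 to 1.09 over the other ends, of which 6 of 10 had a lower ratio than either copy. In list A the ratios were 0.984 on chromosome 11 and 1.01 on chromosome 12. These ratios were not tested.

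The copies carried similar numbers of sites when set against each other. The ratio of chromosome 11 to chromosome 12 was 1.08 for shared summits (95% exact interval 0.801 to 1.45), and 98 against 91 did not differ beyond counting error (exact binomial p = 0.663). In list A the ratio was 1.01 (0.817 to 1.25, exact binomial p = 0.958). List B had the largest difference, with 163 summits on chromosome 11 and 142 on chromosome 12, a ratio of 1.15 (0.911 to 1.45, exact binomial p = 0.252). All 3 intervals include equal numbers, and those of the shared and list B counts reach up to 1.45 times more on chromosome 11. Intervals cover counting error only, and neighbouring summits are not independent, so they may be too narrow.

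Sites in the copies recurred between the technical pools at shares close to those elsewhere. Of the 358 list A members, 189 had a partner in list B, or 52.8% (95% Wilson interval 47.6 to 57.9%), against 56.8% of the whole list and 54.5% of the 1751 list A summits at the other ends. Of the 305 list B members, 189 had a partner, or 62.0% (56.4 to 67.2%), against 63.1% of the whole list and 61.9% of 1543 at the other ends. The list A share was 54.4% on chromosome 11 (47.2 to 61.6%) and 51.1% on chromosome 12 (43.8 to 58.4%). In list B the order of the copies was the opposite, 60.1% on chromosome 11 (52.5 to 67.3%) and 64.1% on chromosome 12 (55.9 to 71.5%). The chromosome 11 minus chromosome 12 difference was 3.32 percentage points in list A (95% interval -6.96 to 13.5, Fisher's exact p = 0.597) and -3.96 points in list B (-14.6 to 6.93, Fisher's exact p = 0.555). Against the other ends, the mean share differed by -1.43 points in list A (exact permutation p = 0.636) and by 0.240 points in list B (exact permutation p = 0.970).

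**Figure D2:**
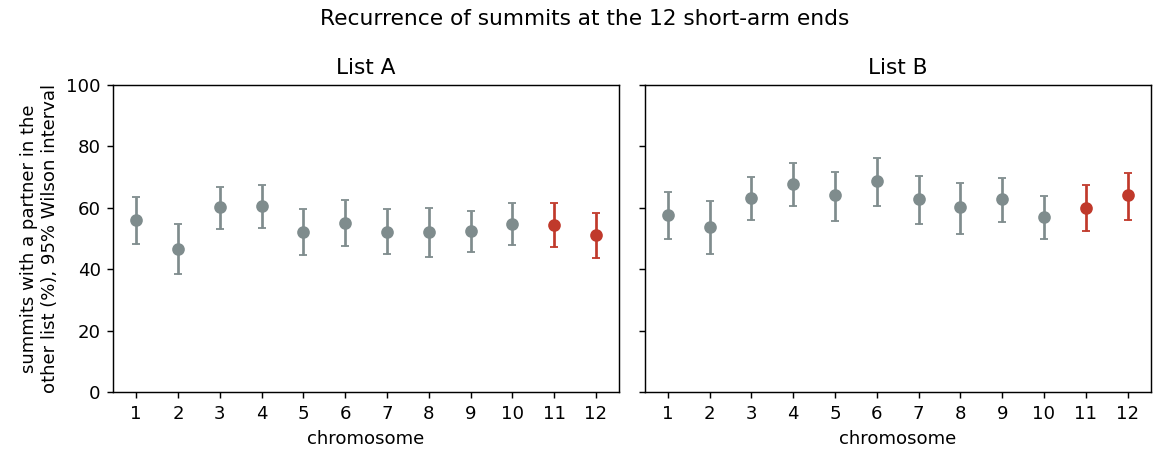
Percentage of summits with a partner within 250 bp in the other list, for each of the 12 short-arm ends, with 95% Wilson intervals and the duplicated ends in red. The red points, 54.4% and 51.1% in list A and 60.1% and 64.1% in list B, lie within the range of the grey ones.

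Among members called shared, which by definition lie within 250 bp of their partner, distances between the lists were as follows. The partner summits lay a median of 18.5 bp apart on chromosome 11 and 20 bp apart on chromosome 12, against 15.0 bp at the other ends. Of the 189 shared members, 64 lay within 10 bp of their partner (33.9%, against 37.6% of 954 at the other ends) and 162 within 50 bp (85.7% against 85.0%). At 5 members both lists gave the identical position, and 10 were more than 100 bp apart. The list B partner lay to the right of 104 members and to the left of 80, whereas at the other ends 443 lay to the right and 491 to the left. These distances were not tested.

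For shared summits, the richest 500 kb window had the same borders in both copies. The same window was also richest at the ends of chromosomes 5, 8 and 9, and tied for richest on chromosome 3. At the ends of chromosomes 1, 2, 4, 6, 7 and 10 another window was richest. The poorest windows of the copies lay at opposite sides. On chromosome 11, successive 500 kb windows from the start held 11, 23, 24, 18 and 22 shared summits. The poorest was thus the outermost window, from 1 to 500000, with 25 list A and 20 list B summits, and the richest ran from 1000001 to 1500000, with 49 in list A and 38 in list B. On chromosome 12 the successive counts were 18, 20, 23, 17 and 13. Here the window richest in shared summits again ran from 1000001 to 1500000, with 36 summits in list A and 31 in list B, and the poorest was the innermost one, from 2000001 to 2500000, with 35 list A and 24 list B summits. The single lists ranked the windows differently. List B was richest from 500001 to 1000000 in both copies, with 42 summits on chromosome 11 and 32 on chromosome 12. That window was also richest in list B on chromosomes 5, 7 and 10, and not at the remaining ends. On chromosome 12, list A was richest in the outermost window with 39 and poorest from 1500001 to 2000000 with 30. The 10 windows of the copies ran from 11 to 24 shared summits with a median of 19.0, and the 50 windows of the other ends ran from 9 to 33 with the same median of 19.0.

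Recurrence varied along the copies as well. The outermost window of chromosome 11 had the lowest share of list A summits with a partner on that chromosome, 44.0% of 25, and the innermost had the highest, 61.1% of 36. In list B the lowest chromosome 11 window ran from 500001 to 1000000, 54.8% of 42, against 55.0% of 20 in the outermost. On chromosome 12 the innermost window was the lowest, 37.1% of 35, and the richest window, from 1000001 to 1500000, was the highest, 63.9% of 36. In list B that same chromosome 12 window had 74.2% of 31. The outermost window was also the lowest in list A on chromosomes 1, 2, 3, 6 and 9, and not on chromosomes 4, 5, 7, 8 and 10. Over the windows of the other ends, list A shares ran from 32.1% to 70.6%. The windows are small, and these shares were not tested.

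At 100 kb scale, the variance of shared counts was 1.04 times their mean on chromosome 11 and 1.30 times on chromosome 12, within the range of 0.706 to 1.93 over the other ends. The richest chromosome 12 window ran from 1100001 to 1200000 with 9 shared summits, where list A had 10 and list B had 11 summits. Chromosome 11 reached 8 in each of 2 windows, the first from 800001 to 900000, where list A had 10 and list B had 11. Chromosome 11 had 0 windows without a shared summit and chromosome 12 had 1, the outermost. Across the 25 windows, shared counts of the copies had no rank correlation to speak of (Spearman rho = 0.02, place 33 of the 66 pairs of chromosome ends, which ran from -0.43 to 0.45 with a median of 0.01). List A gave a rho of 0.03 and list B one of 0.08, both place 32 of 66. All pairs come from the same pooled libraries, and these correlations carry no p.

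**Figure D3:**
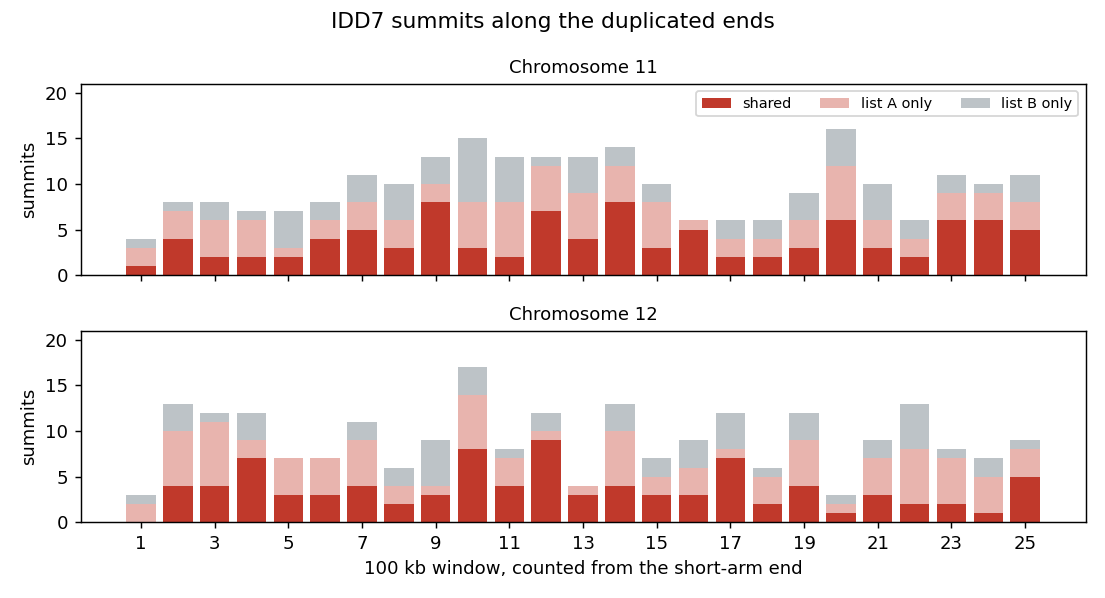
Number of IDD7 summits in each 100 kb window from the short-arm end of chromosome 11 (top) and chromosome 12 (bottom), stacked as shared, list A only and list B only. Shared counts reach 8 on chromosome 11 and 9 on chromosome 12, in different windows.

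The first site from the chromosome start differed between the copies. On chromosome 11 the first summit was shared and lay at 2800 in list A (interval 2550 to 3049) and at 2765 in list B. On chromosome 12 list A began at 1759 and list B at 52305, and these were not partners. The first shared summit of chromosome 12 lay at 128548 (interval 128298 to 128797). The longest stretch without a summit of either list was 78.1 kb on chromosome 11, from 1553398 to 1631477, and 78.4 kb on chromosome 12, from 1921743 to 2000159. They were almost equal in length but lay at different distances from the start. The longest such stretches of the other ends ran from 57.8 to 122 kb. Next on chromosome 11 came 67.7 kb from 1718022 to 1785707, and next on chromosome 12 came 50.9 kb from 596065 to 646996.

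The spacing of neighbouring sites did not differ detectably between the copies and other ends. The median gap between neighbouring shared summits was 15983 bp on chromosome 11 and 14046 bp on chromosome 12, and the medians of the other ends averaged 15811 bp (SD 3878, n = 10 ends). The mean of the copies differed by -797 bp (exact permutation p = 0.758). In list A the medians were 7783 and 10120 bp, against 8627 bp (SD 1449, n = 10 ends; exact permutation p = 0.788). In list B they were 9080 and 12202 bp, against 9881 bp (SD 2245, n = 10 ends; exact permutation p = 0.682). Chromosome 12 thus had the wider median gap in each list and the narrower one among shared summits, which was not tested between the copies. All 15 tests of density, recurrence, spacing and counts had an adjusted p of 0.985, and 0 had an unadjusted p under 0.05.

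Few shared sites of the copies stood close together. Chromosome 11 had 3 neighbouring shared pairs under 1000 bp apart and chromosome 12 had 4 (3.09% and 4.44% of gaps, against 3.71% at the other ends). The closest on chromosome 11 were the summits at 1910444 and 1911031, 587 bp apart, and on chromosome 12 those at 917227 and 917733, 506 bp apart. In list B, 14 of the 141 gaps on chromosome 12 were under 1000 bp (9.93%), against 8 of 162 on chromosome 11 (4.94%) and 5.81% at the other ends. In list A, the copy with more close gaps was chromosome 11, with 14 of 179 (7.82%), against 10 of 177 on chromosome 12 (5.65%) and 7.18% elsewhere. Gaps over 50000 bp made up 15.5% and 15.6% of shared gaps in the copies and 16.1% elsewhere.

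**Figure D4:**
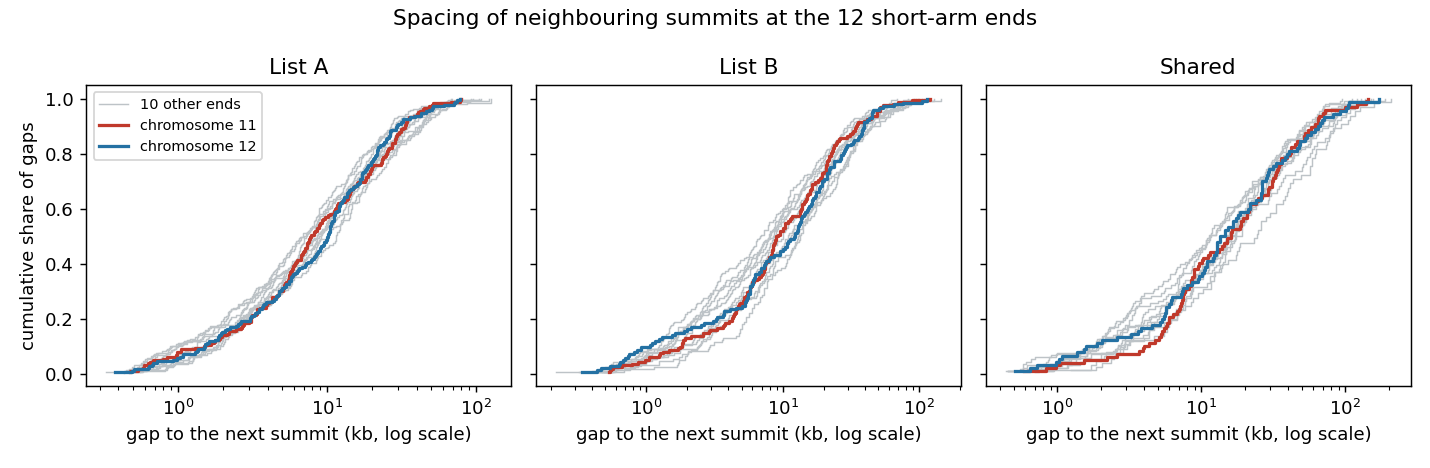
Cumulative share of gaps between neighbouring summits at each short-arm end, against the gap in kb on a log axis, for list A, list B and shared summits. The curves of chromosome 11 (red) and chromosome 12 (blue) run among those of the 10 other ends (grey), with median shared gaps of 15983 and 14046 bp.

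By the measure used here, the order and spacing of IDD7 sites in the copies stood within the range of the other pairs of chromosome ends. Summits of 2 ends were joined into a collinear chain when they followed each other in the same order, with successive gaps of at most 50 kb that differed by at most 200 bp between the ends, and a chain needed 4 or more summits. Of the shared summits, 0 of 98 on chromosome 11 joined a chain with chromosome 12, where 2.22% of summits did so over the 65 other pairs of ends. Of these other pairs, 29 had more chained shared summits, up to 9, and 36 also had 0. In list A, 39 of the 180 summits of chromosome 11 were chained with chromosome 12 (21.7%), against 20.8% over the other pairs. With 16 to 56 chained summits in the other pairs and a median of 36.0, 27 of them had more. In list B, 18 of 163 were chained (11%), against 13.3% over the other pairs, whose median was 20 and highest value 45. With chromosome 12 read backwards, 43 list A and 17 list B summits were chained, against 39 and 18 in the forward order. These values are ranks among pairs that share chromosomes, and carry no p. Of the 65 other pairs, 20 include one of the copies; over the remaining 45, the medians were 4, 34 and 20 chained shared, list A and list B summits. Older duplicated blocks between other ends were not examined.

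As an upper reference without any divergence, list A was searched against list B of the same end, where sharing within 250 bp largely fixes the outcome. On chromosome 11, 80 of the 98 shared summits were chained at their own position (81.6%), with a longest chain of 21, and on chromosome 12, 80 of 91 (87.9%), again with a longest chain of 21. This does not show that the search would find order between diverged copies. Between the copies the longest chain had 5 summits in list A and 5 in list B, while the other pairs reached 7 and 6. Sites whose spacing differs by more than 200 bp between the copies, through an insertion or deletion, break a chain and are missed by it. The treatment of reads that align to both copies is not stated in the labels.

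The chains found between the copies could not repeat whole, since every chain held at least 1 summit without a partner in the other list. Of the 39 summit pairs chained in list A, 11 had both summits shared, and 0 of 39 was chained in list B. Of the 18 list B pairs, 6 had both summits shared, and 0 was chained in list A. These counts of 0 were thus largely fixed in advance, and no conclusion is drawn from them. Most chains also joined places at very different distances from the chromosome start, whereas the gene order above ran in parallel. Of the 9 list A chains, 1 joined places within 100 kb of the same distance. It spanned 159 kb and joined chromosome 11 summits at 1040206, 1065955, 1112590, 1161617 and 1199345 with chromosome 12 summits at 1034128, 1060065, 1106514, 1155548 and 1193220. Each chromosome 12 summit was between 5890 and 6125 bp nearer to the start. Of its 5 pairs, 1 had both summits shared, and it was singled out after its position was seen. In list B, 1 of 4 chains joined places within 100 kb of the same distance, from 2257515 to 2328117 on chromosome 11 and from 2343888 to 2414608 on chromosome 12. Chains within this distance held 5 list A and 4 list B summits, and 9 and 7 of the 65 other pairs of ends held more.

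Within the span of each chain, the chromosome 11 summits that were not members of that same chain were counted. Summed over the list A chains there were 48, and 2 had a chromosome 12 summit within 250 bp of the matching place. In list B this held for 0 of 14. Some list A spans overlapped, so the 48 include members of other chains and some summits counted more than once. Of all bases in the chromosome 12 end, 3.56% lay within 250 bp of a list A summit and 2.83% within 250 bp of a list B summit, so these counts say nothing particular about the copies. Because other pairs of ends had chains in similar numbers, these spans were not taken as matching duplicated positions. With 0 chains of shared summits, no shared site could be listed as present in 1 copy and absent from the other.

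**Figure D5:**
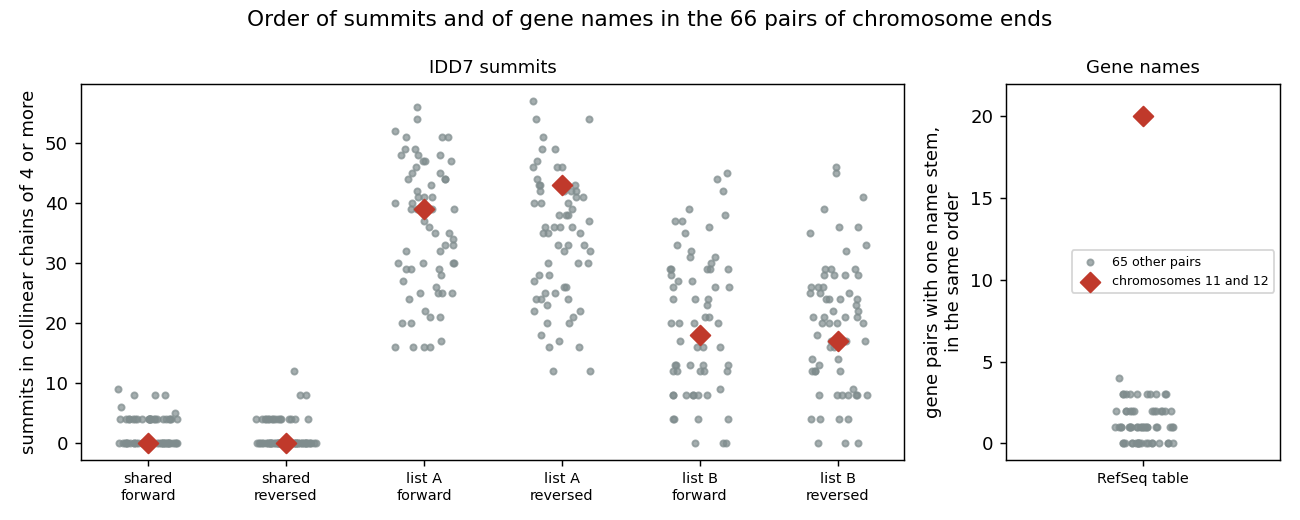
Left, number of summits in collinear chains of 4 or more for each of the 66 pairs of chromosome ends, for shared, list A and list B summits with the second end read forward or reversed; right, gene pairs with the same name stem in the same order in the first 400 genes. Chromosomes 11 and 12 (red diamonds) stand at 20 for gene names, above every other pair (at most 4), and among the other pairs for summits (0, 39 and 18 forward).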

How the data were processed

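The submitters' processing notes name bedtools, MACS2, deepTools, Bowtie2, FastQC and fastp 0.23.2. Neither the settings nor the peak threshold nor the genome build is given in the sources used. The authors deposited 2 lists of 500 bp intervals (other unit: positions in bp, with no score, count or significance), so depth at the peaks is unknown. For each library the labels list 6 Gb of sequence and 150 bp reads. Coordinates are 1-based and follow the lists' own build, and the interval midpoint was taken as the summit. Library groups came from sample titles.

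Values were computed with Python 3.11.15, NumPy 2.4.6 and SciPy 1.17.1. The 15 tests were two-sided and adjusted together by the Benjamini-Hochberg method: exact permutation of 12 chromosome ends, exact binomial tests and Fisher's exact tests. Shares have 95% Wilson intervals, count ratios exact ones, and differences of shares were bounded from the Wilson limits. A lone permutation p cannot pass after adjustment. Chains were taken longest first, each summit once. Sharing, the permutation test and the chain search were tested on simulated data. For the chain search the simulated copy had few insertions, and recovery was counted only over unbroken stretches long enough to chain. It therefore does not show that the search finds order between diverged copies. The region, the measures and the comparison of gene name stems were chosen with earlier results of these data known. Named sites are the richest and poorest windows, longest empty stretches, first summits and chain members. Alternatives varied end length, sharing distance, comparison ends and chain settings. Sequence was not analysed here.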

Additional observations from a re-analysis of the deposited data

How the results depend on the processing

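Of 111 recomputed tests, 0 had an adjusted p under 0.05 (lowest 0.384) and 1 an unadjusted p under 0.05. This does not show stability: 84 of them permute ends, where the smallest p of 0.0152 in the main comparison becomes 0.227 after adjustment over 15 tests when it stands alone. The small differences changed sign in 29, as follows; differences are copies minus other ends per Mb, percentage points or bp, and count ratios are chromosome 11 over 12. With ends of 1.5 Mb the shared density differed by 3.00, list B density by 2.80, list A recurrence by 1.08 and the median shared gap by 1807, the count ratios were 0.951 (shared) and 0.991 (list A), and list A recurrence between the copies differed by -2.20. With 2 Mb the shared density differed by 0.700, the shared ratio was 0.974 and the recurrence difference -1.77. With 3 Mb list B recurrence differed by -0.0134, the shared gap by 292, the ratios were 0.965 (shared) and 0.977 (list A) and the recurrence difference between the copies -0.653. With 5 Mb the densities differed by 1.40 (shared) and 0.800 (list B), list A recurrence by 0.324, the gaps by -72.6 (list A) and -217 (list B), and the ratios were 0.857 (shared), 0.844 (list A, exact binomial p = 0.0256, adjusted p = 0.384) and 0.95 (list B). Without the ends of chromosomes 4 and 10 the densities differed by 1.15 (shared), 1.65 (list B) and 0.550 (list B only); without chromosome 9, by 0.289 and 0.200 (shared and list B); against long-arm ends the list A gap differed by -145. The cause was not tested.

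Chained summits between the copies were 0 for shared summits and remained 0 in 10 of 16 alternatives. In some of these, most of the 65 other pairs had more. With ends of 5 Mb, 53 had more (median 8, up to 28), and with gaps up to 100 kb, 46 (median 4, up to 25). With a sharing distance above 250 bp, 34 had more (median 4). The remaining alternatives with 0 had a median of 0, with 1 to 29 pairs having more. With a tolerance of 500 bp the copies had 8 chained summits (median of other pairs 9). With chains of 3 or more they had 21 (median 15.0, and 11 of 65 pairs had more). They had 39 and 18 in lists A and B, and 26 and 29 across the lists (medians 24.0 and 29.0). A tolerance of 50 bp with chains of 3 and the limit of 100 kb on the difference in distance were chosen after seeing the data. List A counterparts numbered 0 within 100 bp and 4 within 500 bp. Leaving out a biological replicate could not be done with pooled lists. No paired analysis was possible because replicate numbers do not appear in either list. Without peak height, a site absent from 1 list or copy cannot be told apart from one under the calling threshold.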
